A study of Homo sapiens with 9 samples.

Results

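Haem oxygenase 1, encoded by HMOX1, was followed across 9 whole-transcript arrays of HT-29, an established epithelial cell line from a human colon adenocarcinoma. It is 1 gene of 14884 with a named row on the array and of 11163 that were tested, and it was taken as every row that the platform annotation names HMOX1, which was 1 row. The cells received the vehicle (called untreated here, as in the labels), rosemary extract, a plant extract with many phenolic compounds, or carnosic acid, a phenolic diterpene of that plant, and were harvested after 24 h. Each group had 3 arrays, described by the submitters as biological replicates, and the number of arrays limits the precision. All arrays come from 1 cultured line with no other allele or agent named. The sources used here give no concentrations, so the doses of extract and compound may not match.

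Haem oxygenases open the haem ring and release biliverdin, carbon monoxide and ferrous iron. Biliverdin reductase then turns biliverdin into bilirubin, and the iron is stored in ferritin or exported. HMOX1 is the inducible form and HMOX2 the constitutive one. Transcription of HMOX1 is held down by the haem-binding repressor BACH1 and raised by NRF2 (encoded by NFE2L2), which binds antioxidant response elements with small MAF proteins. NRF2 itself is controlled largely through protein stability by the adaptor KEAP1. In the gut, haem oxygenase 1 is known for its part in handling dietary haem and oxidative stress.

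HMOX1 (Entrez gene 3162, array row 16929562) lies on chromosome 22, bases 35381096 to 35394207 of GRCh38.p14 in RefSeq, and is protein coding. Levels are RMA values on a log2 scale, on which a step of 1 is a doubling. Since RMA gives no detection call, rows with a mean under 4.50 were treated as dim, and HMOX1 lay well above that limit in every array. Of 12 listed intestinal epithelial markers 9 had a named row, and all 9 lay above the dim limit. The 3 erythroid markers with a named row lay above it too, so passing the limit does not show the cell type. The mean level of the 9 was 8.45 to 8.56 in untreated, 8.55 to 8.65 in extract and 8.62 to 8.71 in carnosic acid arrays. Each treatment called 2 of the 9 markers higher and 3 lower, where of all tested genes 21.8% were called higher and 16.3% lower with extract, and 12.9% and 6.12% with carnosic acid. The mean thus covers opposite changes. CEACAM5 (log2 change 2.82 with extract, 2.22 with carnosic acid) and KRT20 (0.77 and 0.88) were higher. VIL1 (-1.29 and -0.35), KRT18 (-0.48 and -0.31) and EPCAM (-0.19 and -0.21) were lower. Arrays of 1 group correlated at 0.991 to 0.993 over all rows.

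HMOX1 rose with both treatments and rose more with the extract. Untreated arrays read 7.18, 7.40 and 7.37 (mean 7.32 ± 0.12, SD, n = 3). Extract arrays read 10.29, 10.40 and 10.15 (mean 10.28 ± 0.12, SD, n = 3). Carnosic acid arrays read 8.36, 8.35 and 8.15 (mean 8.29 ± 0.12, SD, n = 3). All extract arrays lay above all carnosic acid arrays, and those above all untreated arrays, with no overlap and nearly equal spreads. The gap between the highest untreated and the lowest extract array was 2.75 on the log2 scale, and that between untreated and carnosic acid arrays 0.75. The order from low to high was thus untreated, carnosic acid, extract, and each neighbour in it differed beyond the spread of its replicates.

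**Figure D1:**
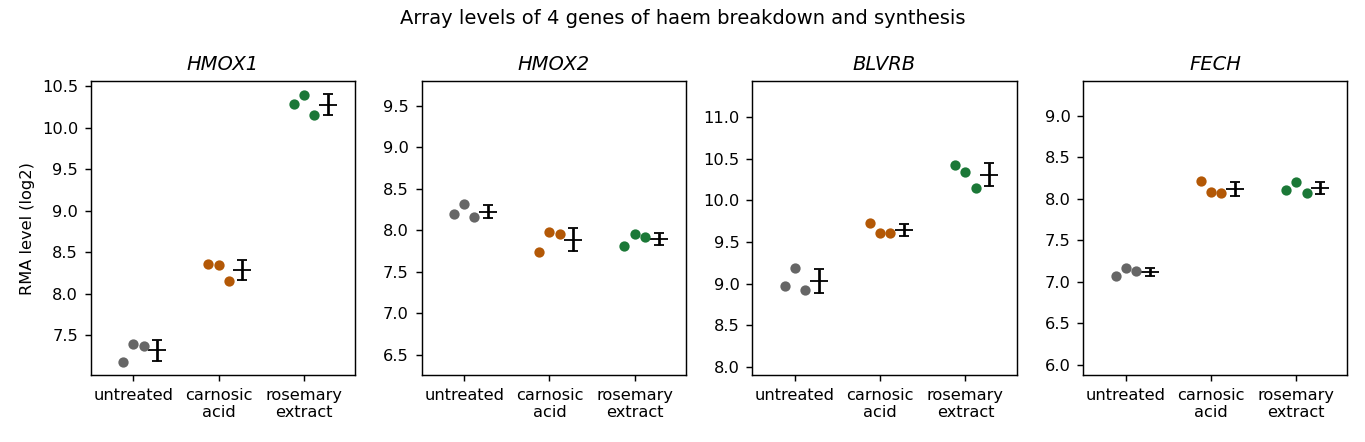
RMA level (log2) of HMOX1, HMOX2, BLVRB and FECH in each array, with 1 point per array and a black mark for the mean ± SD (n = 3); all panels span the same number of log2 units. HMOX1 climbs from a mean of 7.32 to 8.29 with carnosic acid and 10.28 with extract, while FECH reaches about the same level with both treatments.

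Against untreated cells the extract raised HMOX1 by 2.96 ± 0.087 (log2, SE), a 7.79-fold rise with a 95% interval of 6.83 to 8.90 (limma, adjusted p = 4.08e-09). Higher calls at an adjusted p under 0.05 made up 21.8% of the genes tested in this comparison and lower calls 16.3%, and for 25% the extract arrays all lay above the untreated ones. A call by itself was therefore common, whereas the size of the rise placed HMOX1 at 8 of 11163 in the order of increases. Directly above it stood the metallothioneins MT1F and MT1X, the lipid hydrolase ABHD4, the lysosomal protease CTSL and SPIRE1. Single pairs of an extract and an untreated array gave rises of 6.74-fold to 9.31-fold.

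Carnosic acid raised HMOX1 by 0.97 ± 0.087 (log2, SE), a 1.96-fold rise with a 95% interval of 1.71 to 2.23 (limma, adjusted p = 3.08e-05). Here higher calls made up 12.9% of genes and lower calls 6.12%, and for 19.7% the carnosic acid arrays all lay above the untreated ones. The 683 lower calls became 367 without carnosic acid replicate 1. HMOX1 stood at 94 of 11163 in the order of increases. Its place was 81 to 121 with 1 array left out and 327 of 53617 with all rows tested. Nearby were, among others, UGDH, an NRF2 target that makes UDP-glucuronic acid (log2 change 0.97), and IL1RN, the interleukin 1 receptor antagonist (0.97). On the log2 scale the carnosic acid change was 32.7% of the extract change.

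Extract against carnosic acid gave a difference in HMOX1 of 1.99 ± 0.087 (log2, SE), 3.98-fold with a 95% interval of 3.49 to 4.55 (limma, adjusted p = 1.56e-07). Of all genes 8.24% were called higher and 9.07% lower between the treatments, and for 16.2% the extract arrays all lay above the carnosic acid arrays. The 920 higher calls became 551 without rosemary extract replicate 1 and 533 without rosemary extract replicate 2. They became 612 without carnosic acid replicate 2, 625 without carnosic acid replicate 3 and 762 to 1036 without 1 of the others. HMOX1 came at 6 in that order, behind 4 metallothioneins (MT1G, MT1H, MT1F and MT1X) and the ER chaperone CLGN (2.48). An exact permutation test of HMOX1 alone gave p = 0.1 in each of the 3 comparisons (two-sided, n = 3 a group), the smallest p this design allows.

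**Figure D2:**
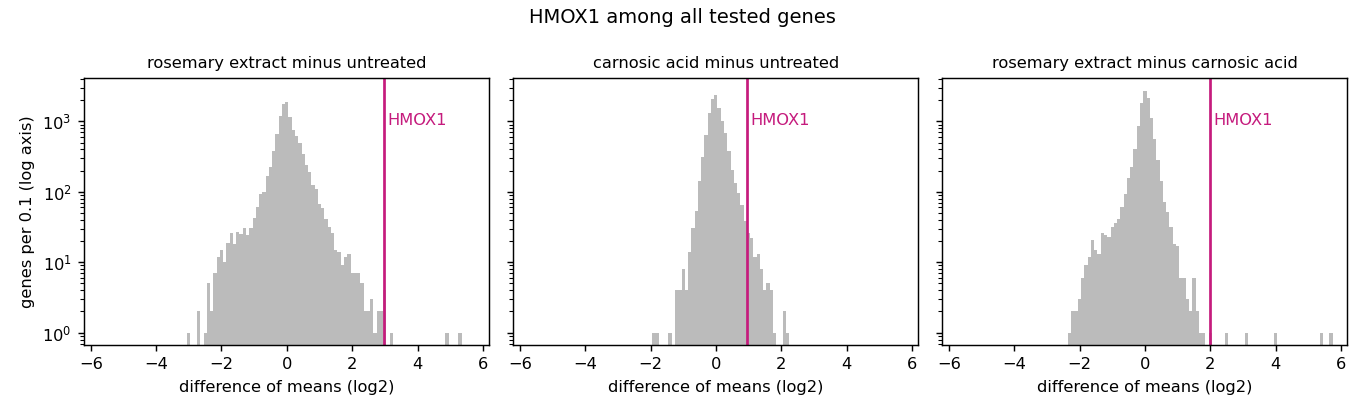
Number of tested genes (log axis) by difference of group means (log2, bins of 0.1) in the 3 comparisons, with HMOX1 marked by the vertical line. HMOX1 lies at the far right with extract (2.96) and between the treatments (1.99), and on the upper shoulder with carnosic acid (0.97).

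The constitutive paralog HMOX2 did not share the rise. HMOX2, on chromosome 16, read 8.19, 8.31 and 8.16 in untreated, 7.81, 7.96 and 7.92 in extract, and 7.73, 7.98 and 7.95 in carnosic acid arrays. Every treated array lay below every untreated one, but the share of all genes lying so was not counted. Lower calls made up 16.3% of all tested genes with extract and 6.12% with carnosic acid. HMOX2 fell by 0.33 ± 0.081 with extract (log2, SE, limma, adjusted p = 0.00728) and by 0.34 ± 0.081 with carnosic acid (adjusted p = 0.0133). Leaving out untreated replicate 2 ended the carnosic acid call (adjusted p = 0.0533), as did leaving out carnosic acid replicate 1 (0.0561) or testing all rows of the array (0.0598). Between the treatments HMOX2 differed by 0.010, with a 95% interval of -0.17 to 0.19 (log2), so a gap as wide as that of HMOX1 lies far outside the interval. Taken within each array, the HMOX1 change exceeded the HMOX2 change by 3.29 with extract and by 1.30 with carnosic acid (log2). An exact two-sided permutation test gave p = 0.1 for each, again the lowest p possible with 3 arrays against 3.

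The genes named as biliverdin reductases, BLVRB and BLVRA, split, and bilirubin formation was not measured. BLVRB, biliverdin reductase B, read 8.97, 9.19 and 8.92 in untreated, 10.43, 10.34 and 10.16 in extract, and 9.73, 9.60 and 9.61 in carnosic acid arrays. These are 3 separate ranges in the same order as for HMOX1. Over all genes the extract arrays all lay above the untreated ones for 25%, and the carnosic acid arrays for 19.7%. For 16.2% the extract arrays all lay above the carnosic acid arrays. BLVRB rose by 1.28 ± 0.085 with extract (log2, SE, limma, adjusted p = 4.26e-07) and by 0.62 with carnosic acid (adjusted p = 0.000461), and was 0.66 higher with extract than with the compound (adjusted p = 0.000254). BLVRA, the classical biliverdin reductase, was not called (-0.26, adjusted p = 0.0957 with extract, and -0.30, adjusted p = 0.0923 with carnosic acid). Of 5 listed genes of haem breakdown 4 had a named row and were tested, and each treatment called 2 higher (HMOX1 and BLVRB) and 1 lower (HMOX2). Over all genes the shares called higher and lower were 21.8% and 16.3% with extract and 12.9% and 6.12% with carnosic acid. POR, the reductase that feeds electrons to haem oxygenases, had no named row here.

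Among the genes of haem synthesis FECH stood out. FECH encodes ferrochelatase, which inserts iron in the last step. It read 7.07, 7.16 and 7.13 in untreated, 8.11, 8.21 and 8.07 in extract, and 8.22, 8.08 and 8.07 in carnosic acid arrays. Treated arrays lay about 1 log2 unit above the untreated ones, and the treated groups overlapped each other. FECH rose by 1.01 ± 0.069 with extract (log2, SE, limma, adjusted p = 5.76e-07) and by 1.0 ± 0.069 with carnosic acid (adjusted p = 5.54e-06). The difference between treatments was 0.0044 with a 95% interval of -0.15 to 0.16 (log2), whereas HMOX1 differed by 1.99 in the same arrays.

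Of 10 listed synthesis genes 7 were tested. With extract 3 were called higher and the other 4 were not called, with a median log2 change of 0.094 against -0.018 over all tested genes, of which 21.8% were called higher. With carnosic acid FECH was the only one of the 7 called in this fit (median 0.094, all genes -0.011, 12.9% of them higher). CLPX, the mitochondrial chaperone that acts on 5-aminolevulinate synthase, rose by 0.33 with extract (adjusted p = 0.00288). UROD, uroporphyrinogen decarboxylase, rose by 0.22 (adjusted p = 0.0281), a call that ended when untreated replicate 2 (0.0984) or rosemary extract replicate 2 (0.124) was left out, under cyclic loess (0.0546), with all rows tested (0.0814) and with the fit limited to 6 arrays (0.0541). Its 3 carnosic acid arrays hold the same value, 7.72. CPOX was not called with extract (-0.32, adjusted p = 0.0531), but was called lower when the dimmer 50% of genes were left out (0.0363), and without untreated replicate 1 (0.0201), rosemary extract replicate 1 (0.0405) or either of carnosic acid replicates 2 (0.0446) and 3 (0.0428). ALAD, an early enzyme of the pathway, stood at 0.094 with extract (adjusted p = 0.437) and 0.096 with carnosic acid (0.483). UROS and PPOX, which act in the middle and near the end of the pathway, were not called (-0.068, adjusted p = 0.520, and -0.069, adjusted p = 0.562, with extract).

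Of 16 listed genes of haem transport and binding 9 had a named row and 7 were tested, with medians of 0.032 with extract and -0.058 with carnosic acid (log2). Extract called 2 of the 7 higher and 1 lower, beside 21.8% and 16.3% of all genes. Carnosic acid called 2 higher and the other 5 were not called, beside 12.9% of all genes higher. LRP1, the receptor that takes up haem bound to hemopexin among many other ligands, rose by 1.58 ± 0.13 with extract (log2, SE, limma, adjusted p = 1.95e-06) and by 1.25 with carnosic acid (adjusted p = 7.41e-05). FLVCR1, a haem exporter, rose by 0.42 with carnosic acid (adjusted p = 0.00251) and was not called with extract (0.16, adjusted p = 0.118). HEBP2, a haem-binding protein, fell by 0.39 with extract (adjusted p = 0.000445). It stood at -0.18 with carnosic acid (adjusted p = 0.0739), which became a call without rosemary extract replicate 3 (0.0417) and under cyclic loess (0.0244). TMEM14C, a mitochondrial porphyrinogen transporter, was called higher with extract (0.20, adjusted p = 0.0364), and that call was lost without untreated replicate 2 or 3, rosemary extract replicate 1 or 3, or carnosic acid replicate 2 (adjusted p of 0.0523 to 0.132), as well as under cyclic loess (0.106), with all rows (0.116), without the variance trend (0.0626) and with 6 arrays (0.0678).

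Iron handling genes were mixed. Both ferritin chains (FTH1 and FTL), the exporter SLC40A1 and the transferrin receptor TFRC had no named row, so those genes were not analysed here. Of 26 listed 12 were tested. Extract called 4 higher and 1 lower (all genes 21.8% and 16.3%), and carnosic acid called 2 higher and 2 lower (all genes 12.9% and 6.12%). STEAP1, of a family of metalloreductases, went from 3.70, 3.28 and 4.08 in untreated, under the dim limit, to 5.93, 5.85 and 5.81 with extract and 5.09, 5.15 and 5.54 with carnosic acid. Its mean over all arrays (4.94) passed the dim limit only through the treated arrays. The counts of 4 and 2 higher include STEAP1, but its calls are not read as a result. No fold is given, because its untreated level cannot be told from background. NCOA4, the receptor that carries ferritin to the lysosome, rose by 0.46 with extract (adjusted p = 3.46e-05) and 0.24 with carnosic acid (adjusted p = 0.00909). The iron chaperone PCBP1 rose by 0.21 with extract (adjusted p = 0.00517).

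LCN2, the siderophore-binding lipocalin 2, was one gene of this list that the treatments separated. Untreated arrays read 8.13, 8.29 and 8.43, extract arrays 9.13, 9.28 and 9.27, and carnosic acid arrays 8.14, 8.01 and 8.23. Only the extract arrays stood apart, and for 25% of all genes the extract arrays all lay above the untreated ones. LCN2 rose by 0.94 ± 0.087 with extract (log2, SE, limma, adjusted p = 5.68e-06), was not called with carnosic acid (-0.16, adjusted p = 0.238) and was 1.10 higher with extract than with carnosic acid (adjusted p = 6.02e-06). STEAP4 fell by 0.80 with extract (adjusted p = 0.000123). With carnosic acid STEAP4 (-0.38, adjusted p = 0.0329) and CYBRD1 (-0.46, adjusted p = 0.0459) were called lower, a count of 2 that became 0 or 1 without any 1 of the 9 arrays and under each other setting except the mean of a gene's rows. The count of 1 lower with extract became 3 without untreated replicate 2, and 2 without untreated replicate 3, rosemary extract replicate 2 or carnosic acid replicate 3. Medians of the list were -0.010 with extract and -0.039 with carnosic acid, close to those of all genes.

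Known regulators of HMOX1 moved in part. NFE2L2 mRNA, which encodes NRF2, read 8.90, 8.88 and 8.99 in untreated, 8.94, 8.93 and 8.83 in extract, and 8.94, 8.84 and 8.79 in carnosic acid arrays. The 3 groups overlapped. Its change was -0.023 with extract (adjusted p = 0.812, 95% interval -0.16 to 0.11) and -0.064 with carnosic acid (adjusted p = 0.520, 95% interval -0.20 to 0.072), and the sign of the first turned under median centring and without untreated replicate 3 or rosemary extract replicate 3. Array values speak for mRNA and not for protein. BACH1, MAFK and HIF1A had no named row here.

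Of 22 listed regulators 17 were tested. With extract 7 were called higher and 2 lower (median log2 change -0.0049, all genes -0.018), and with carnosic acid 6 higher and 2 lower (median 0.047, all genes -0.011). Of all genes 21.8% were called higher and 16.3% lower with extract, and 12.9% and 6.12% with carnosic acid. SQSTM1, the autophagy receptor that binds KEAP1, rose by 1.21 ± 0.085 with extract (log2, SE, limma, adjusted p = 6.87e-07) and by 0.80 with carnosic acid (adjusted p = 9.26e-05). KEAP1 itself rose by 0.22 (adjusted p = 0.0110) and 0.27 (adjusted p = 0.00735). BTRC, a substrate receptor of the ubiquitin ligase that also targets NRF2, rose by 0.96 with extract and 0.57 with carnosic acid (adjusted p = 1.22e-06 and 0.000307). NFE2L1, a relative of NRF2, rose by 0.84 and 0.32 (adjusted p = 1.38e-07 and 0.000680), and was 0.52 higher with extract than with carnosic acid (adjusted p = 1.73e-05).

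MAFG, a small MAF partner, rose by 0.71 with extract (adjusted p = 0.000165) and by 0.40 with carnosic acid (adjusted p = 0.0181), the latter a call lost without untreated replicate 3 (0.0603) or carnosic acid replicate 1 (0.0673) and with all rows (0.0776). MAFF, another small MAF, was not called with extract (0.34, adjusted p = 0.0654), but was called higher without untreated replicate 1 (0.0308) or 3 (0.0472), under median centring (0.0495) and with the dimmer 50% left out (0.0445). ATF4, the transcription factor of the integrated stress response, was 0.33 higher with extract than with carnosic acid (adjusted p = 0.00262). Its rise against untreated (0.21, adjusted p = 0.0169) lost the call without untreated replicate 3 (0.0594), without rosemary extract replicate 1 (0.0607) and under cyclic loess (0.0731) or with all rows (0.0651). The AP-1 subunits split: FOSL1 rose by 0.94 with extract and 0.64 with carnosic acid (adjusted p = 0.000303 and 0.00993, the latter 0.059 with all rows), while JUN fell by 0.47 and 0.53 (adjusted p = 0.000304 and 0.000464) and FOS fell by 0.82 with extract (adjusted p = 4.63e-06). The FOS call with carnosic acid (-0.27, adjusted p = 0.0283) was lost without untreated replicate 1 or 3, without carnosic acid replicate 1 or 2 (adjusted p of 0.0859 to 0.099), under median centring (0.0749) and with all rows (0.105). Without any 1 of those 4 arrays JUN was the 1 regulator called lower with carnosic acid. The other 6 tested regulators were not called and lay at -0.065 to -0.0049 with extract and -0.083 to 0.083 with carnosic acid.

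**Figure D3:**
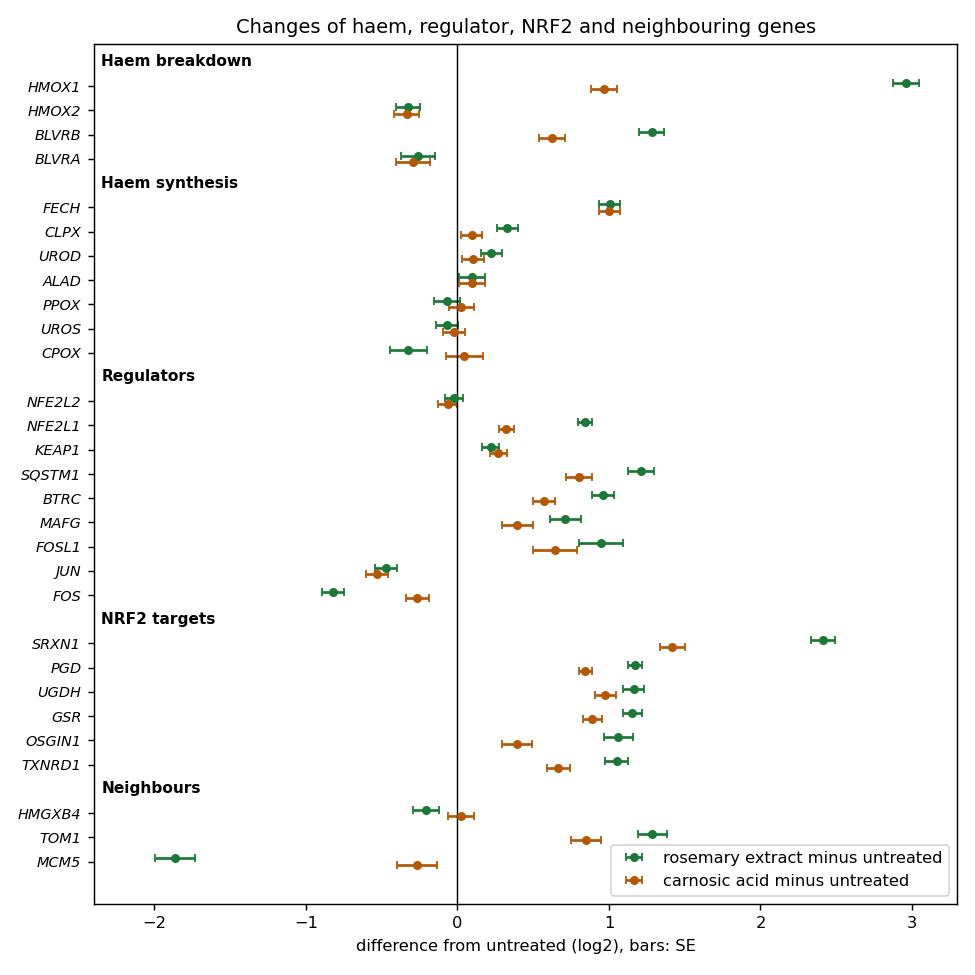
Difference from untreated (log2, bars are the SE of the fit) with rosemary extract and with carnosic acid for genes grouped by role. HMOX1 has the widest distance between its 2 points (2.96 and 0.97) of the genes drawn, FECH points coincide near 1.0, and NFE2L2 points lie near 0.

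Other NRF2 targets mostly rose too, by less than HMOX1 with extract, and each treatment left 3 of the 12 tested uncalled. Of 31 listed 13 had a named row and 12 were tested, and each treatment called 9 higher, with medians of 0.76 with extract and 0.39 with carnosic acid (log2) against -0.018 and -0.011 over all genes. Of all genes 21.8% were called higher with extract and 12.9% with carnosic acid. SRXN1, sulfiredoxin, rose by 2.41 ± 0.082 with extract (log2, SE, limma, adjusted p = 8.38e-09) and by 1.42 with carnosic acid (adjusted p = 1.40e-06). TXNRD1, thioredoxin reductase, rose by 1.05 and 0.67, PGD of the pentose phosphate pathway by 1.17 and 0.84, GSR, glutathione reductase, by 1.16 and 0.89, and UGDH by 1.16 and 0.97. OSGIN1, an oxidative stress-induced growth inhibitor, rose by 1.06 with extract (adjusted p = 5.46e-06) and by 0.39 with carnosic acid (adjusted p = 0.0162), the latter a call lost without carnosic acid replicate 1 (0.0527) and with all rows (0.0638). The 3 carnosic acid arrays hold the same OSGIN1 value, 6.82.

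The targets differed in how far apart the treatments left them. Of the 12 tested, 6 were called higher with extract than with carnosic acid, beside 8.24% of all genes, and 6 were not called. Their differences ran from -0.13 (TKT) to 0.99 (SRXN1). Where HMOX1 was 1.99 higher with extract than with carnosic acid, SRXN1 was 0.99 higher (adjusted p = 7.77e-06), OSGIN1 0.67 (adjusted p = 0.000655), TXNRD1 0.38 (adjusted p = 0.00394) and PGD 0.33 (adjusted p = 0.000337). GSR was 0.26 higher (adjusted p = 0.0131), a call lost without rosemary extract replicate 1 (0.0604), rosemary extract replicate 2 (0.0584) or carnosic acid replicate 3 (0.0606) and with all rows (0.0778). UGDH was not called (0.19, adjusted p = 0.0935) but was called without carnosic acid replicate 1 (0.0472). With carnosic acid alone HMOX1 (0.97) stood level with UGDH (0.97) and below SRXN1 (1.42). NQO1, GCLC, GCLM and SLC7A11 had no named row here.

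Promoter stretches are shown for the genes of haem handling, NRF2 targets and HMOX1-like genes that rose with both treatments and hold the core of the antioxidant response element, TGACNNNGC, upstream of a start site. Sequences are from RefSeq (GRCh38.p14), 5′ to 3′ on the strand of the gene, with up to 20 bases on each side, and capitals mark the match, which on the opposite strand reads as its reverse complement. The FECH stretch is at chr18:57586712-57586760, the PGD stretch at chr1:10398843-10398891, the CTSL stretch at chr9:87726076-87726118 and the VLDLR stretch at chr9:2621732-2621780. TXNRD1 has a stretch at each of 2 starts, chr12:104215660-104215708 and chr12:104286910-104286958.
FECH: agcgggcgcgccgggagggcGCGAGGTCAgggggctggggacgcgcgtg
TXNRD1, first start: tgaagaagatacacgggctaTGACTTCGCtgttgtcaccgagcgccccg
TXNRD1, other start: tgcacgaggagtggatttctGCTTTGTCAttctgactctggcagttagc
PGD: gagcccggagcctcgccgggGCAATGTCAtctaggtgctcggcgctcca
CTSL: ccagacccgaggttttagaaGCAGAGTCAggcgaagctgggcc
VLDLR: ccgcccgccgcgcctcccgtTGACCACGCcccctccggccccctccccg

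The core was searched on both strands of windows of 300 bases, from 250 before to 50 after a start. It occurs in 13.3% of all 35116 windows and in 1 or more windows of 16.1% of genes. Among NRF2 targets 7 of the 23 genes with a window held it (30.4%), among genes of haem synthesis 1 of 8 (FECH), and among the genes most like HMOX1 2 of 6 (CTSL and VLDLR). Of the haem breakdown genes HMOX2, BLVRA and BLVRB had a window and none of the 3 held these letters, and HMOX1 and POR had no entry. A match of these letters describes the sequence and shows no binding, and its absence says only that the letters are not in the window. No comparison of these shares was tested.

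HMOX1 carries the older name HSP32, and heat shock proteins were described for that reason. Of 18 listed 9 were tested. With extract 2 were called higher and 4 lower, and with carnosic acid 2 higher and 3 lower, with medians of 0.087 and 0.048. The shares over all genes were 21.8% higher and 16.3% lower with extract, and 12.9% and 6.12% with carnosic acid, so the 2 higher of 9 with extract are near the background. BAG3, a cochaperone of HSP70, rose by 0.76 and 0.47 (adjusted p = 2.92e-06 and 0.000516). HSPB1, a small heat shock protein, fell by 0.92 with extract (adjusted p = 0.000724), and stood at -0.24 with carnosic acid (adjusted p = 0.343). HSPA4 fell by 0.28 and 0.24 (adjusted p = 0.00117 and 0.00653). The second higher gene with extract, HSPH1 (0.18, adjusted p = 0.0379), lost its call without untreated replicate 1 or 2 or any 1 of the extract arrays, with all rows, without the variance trend and with 6 arrays. HSPA1B, the second with carnosic acid (0.20, adjusted p = 0.0295), lost it without untreated replicate 1 or any 1 of the carnosic acid arrays, and under the same 3 settings and cyclic loess. HSPA4L (-0.21, adjusted p = 0.0371) and HSPD1 (-0.20, adjusted p = 0.0399) both lost their calls with carnosic acid without untreated replicate 3, rosemary extract replicate 1, or carnosic acid replicate 1 or 2, and also under median centring, with no dim filter and under those 3 settings.

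The nearest genes on chromosome 22 moved in different directions. Of 10 listed neighbours 4 had a named row and 3 were tested. MCM5, a subunit of the replicative helicase, starts 19.0 kb beyond the HMOX1 start (bases 35400140 to 35455031). It read 8.76, 8.99 and 8.73 in untreated, 6.93, 6.72 and 7.23 in extract, and 8.38, 8.53 and 8.76 in carnosic acid arrays. Only the extract arrays stood apart, and lower. Lower calls with extract made up 16.3% of all tested genes. MCM5 fell by 1.87 ± 0.13 with extract (log2, SE, limma, adjusted p = 7.33e-07), was not called with carnosic acid (-0.27, adjusted p = 0.190) and differed by -1.60 between extract and carnosic acid (adjusted p = 8.55e-06).

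On the other side lies TOM1, an endosomal trafficking protein (bases 35299275 to 35347973). TOM1 read 6.62, 6.71 and 6.49 in untreated, 7.90, 8.0 and 7.77 in extract, and 7.60, 7.48 and 7.30 in carnosic acid arrays. Like HMOX1 it formed 3 separate ranges in the same order. Of all genes, 25% had every extract array above every untreated one, and 19.7% had this with carnosic acid. Extract arrays all lay above carnosic acid arrays for 16.2%. TOM1 rose by 1.29 ± 0.097 with extract (log2, SE, limma, adjusted p = 1.14e-06) and by 0.85 with carnosic acid (adjusted p = 0.000141). It was 0.44 higher with extract than with carnosic acid (adjusted p = 0.00891), a call lost without rosemary extract replicate 2 (0.0508) and with all rows tested (0.0521). HMGXB4, farther out, was not called with extract (-0.21, adjusted p = 0.0786), but was called lower without rosemary extract replicate 1 (0.0337) and under cyclic loess (0.0225).

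**Figure D4:**
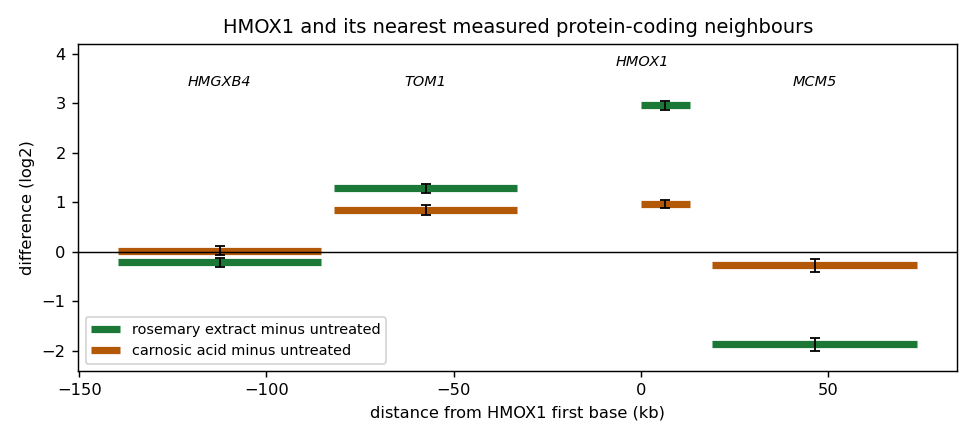
Difference from untreated (log2, black bars are the SE) for HMOX1 and 3 protein-coding neighbours, each drawn over its span as distance from the HMOX1 first base in RefSeq (kb). With extract TOM1 (1.29) and HMOX1 (2.96) are higher and MCM5 (-1.87) is lower.

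Genes whose pattern was most like that of HMOX1 were found by the root mean square difference over the 9 arrays, after each gene's own untreated mean was subtracted. KDM7A, a histone demethylase, came first at 0.27 (log2), followed by NDRG1 (0.28), SLFN5 (0.29), CTSL (0.32), SPIRE1 (0.34), VLDLR (0.35), CPEB4 (0.36) and ULBP1 (0.37). The median over the 11162 other tested genes was 1.82. ULBP1, a stress ligand of natural killer cells, was under the dim limit in untreated cells (3.68, 3.60 and 3.92), so its place in this order rests on values that cannot be told from background and no change is given for it. It read 5.78, 6.61 and 6.26 with extract and 4.48, 4.69 and 4.35 with carnosic acid. The 4.48 and 4.35 with carnosic acid also lie under the dim limit. With extract the other 7 genes changed by 2.49 (CPEB4) to 3.01 (CTSL), beside the 2.96 of HMOX1. With carnosic acid 6 of these 7, from NDRG1 (1.20) to SPIRE1 (1.52), had a higher change than HMOX1 (0.97), while SLFN5 had 0.72. Between the treatments SLFN5 differed by 1.84 and HMOX1 by 1.99. These genes were picked for their likeness, so their changes are given as a description.

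**Figure D5:**
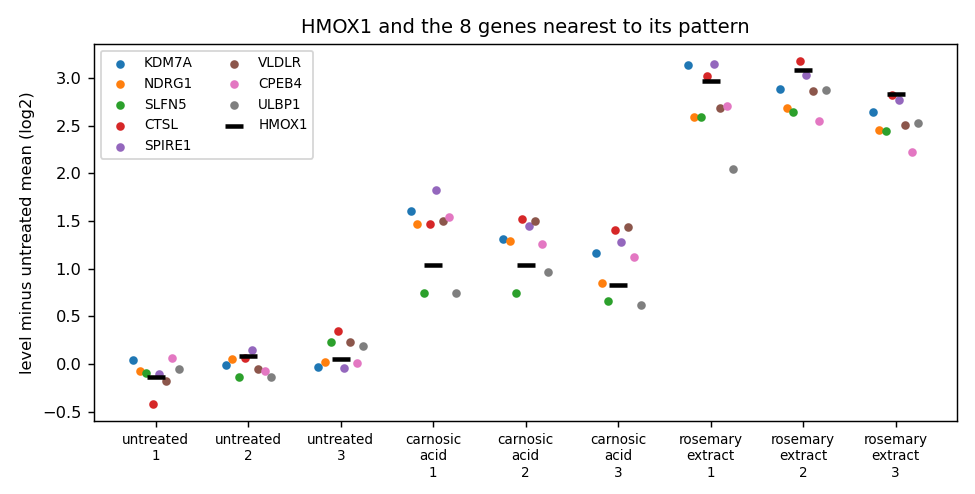
Level minus the gene's own untreated mean (log2) in each of the 9 arrays, for HMOX1 (black bars) and the 8 genes with the smallest root mean square difference from it. The genes lie close together with extract. In carnosic acid arrays most lie above HMOX1, with SLFN5 and ULBP1 below. The ULBP1 level is under the dim limit in untreated arrays and in some carnosic acid arrays.

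HMOX1 is abundant in macrophages, so their markers were read beside it. Of 12 macrophage and leukocyte markers 6 had a named row and 4 lay above the dim limit. Mean levels of the 6 named rows were 6.53 to 6.57 (untreated), 6.63 to 6.81 (extract) and 6.51 to 6.65 (carnosic acid). Their summed level, on the linear scale and in the same order of groups, was 5745 to 6060, 5562 to 5708 and 5695 to 6243. Most of that sum was LYZ, with a mean level of 12.43 in untreated, 12.17 in extract and 12.35 in carnosic acid arrays. The scavenger receptors CD163 (3.81 over all arrays) and MARCO (4.33) lay under the dim limit. Of single markers, named after their values were seen, CD68, a lysosomal glycoprotein that other cells also make, rose by 1.89 with extract and 1.24 with carnosic acid (limma, adjusted p = 3.29e-08 and 4.20e-06), and LYZ fell by 0.26 with extract (adjusted p = 0.000818). LYZ stood at -0.079 with carnosic acid (adjusted p = 0.257). The rest of those tested, CD14 (-0.31 with extract, -0.27 with carnosic acid) and CSF1R (-0.14 and -0.18), were called with neither treatment. Erythroid markers (3 of 12 with a named row, all 3 above the dim limit) had a mean of 5.23 to 5.39 over all arrays, and none of the 3 was called. The shares of all genes called higher and lower were 21.8% and 16.3% with extract, and 12.9% and 6.12% with carnosic acid. The part of these marker genes in the HMOX1 result was not tested.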

How the data were processed

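The data are 9 Affymetrix whole-transcript arrays of HT-29 RNA, 3 per group. The deposited values are log2 expression from RMA in the oligo package, per the labels; its version, the array annotation and the build are not stated in those sources; the values themselves show the log2 scale. RMA compresses large folds. Rows were named through the platform annotation (16098 of 53617 rows; 37519 unnamed here), with symbols looked up by Entrez identifier in RefSeq (all matched, 0 changed). The brightest row of each gene was kept, and the dimmest 25% of genes were left out. Group means were fitted to all 9 arrays with limma 3.58.1 in R 4.3.3 (lmFit, eBayes with trend), two-sided, with Benjamini-Hochberg adjustment over 11163 genes and a call at an adjusted p under 0.05. The fit was checked on simulated data. Nothing says whether cultures were separate, beyond the submitters' term biological replicates, so p-values measure the spread between these arrays.

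HMOX1 and the gene lists were chosen with earlier results of these data known. Lists covered haem breakdown, synthesis and transport, iron handling, HMOX1 regulators, NRF2 targets, heat shock proteins, chromosome 22 neighbours and cell type markers (intestinal, macrophage and leukocyte, erythroid, fibroblast and endothelial; of the last, 4 of 9 had a named row and 1 lay above the dim limit). Genes open to naming were the tested members of the haem breakdown, haem synthesis, regulator and neighbour lists, up to 6 by p of the other lists, the 8 genes nearest in pattern and the genes beside HMOX1 in the order of change; others are said to be so. Alternatives were cyclic loess, median centring, other dim filters, the mean of a gene's rows, all rows, no trend, the 6 arrays compared, the replicate number as a block, and leaving out each array.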

Additional observations from a re-analysis of the deposited data

How the results depend on the processing

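HMOX1 kept its direction and its call in all 3 comparisons under the 18 settings tried. With 1 array left out its log2 change was 2.89 to 3.03 with extract, 0.90 to 1.04 with carnosic acid and 1.93 to 2.06 between them, and the highest adjusted p over all settings was 1.27e-06, 0.000767 and 3.47e-05 (limma). Of 123 changes of named genes 95 kept direction and side of the threshold under every setting, 17 lost the call under some setting and 6 gained one. Among all genes, calls with extract were 4256 of 11163 (38.1%), and 7230 of 53617 (13.5%) with all rows of the array tested. Calls with carnosic acid went from 2123 to between 1385 (without carnosic acid replicate 1) and 2124 with 1 array left out. The sign of 5 uncalled differences turned. Median centring gave -0.0051 for FECH between treatments, 0.0070 for NFE2L2 with extract and 0.014 for UROS with carnosic acid. With 1 array left out, HMOX2 between treatments ran from -0.067 to 0.056, FECH between treatments from -0.034 to 0.053, NFE2L2 with extract from -0.044 to 0.014, UROS with carnosic acid from -0.064 to 0.020, and PPOX with carnosic acid from -0.0079 to 0.064. Same-numbered arrays did not deviate together (r of -0.22 to 0.24), so the numbers were not taken as pairs. With the replicate number as a block HMOX1 kept its changes of 2.96, 0.97 and 1.99, UGDH between treatments gained a call (adjusted p = 0.0175), as did HSPB1 with carnosic acid (0.0229), while STEAP4 (0.051) and HSPD1 (0.056) with carnosic acid lost theirs. Dim rows cannot be told from background, and 3 arrays a group limit the precision.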
